A study of Mus musculus with 15 samples.

Results

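The delta2 glutamate receptor of Purkinje cells (PCs) works together with secreted C1q family proteins that bridge the synaptic cleft, and 7 genes around it are described here: the cerebellins *Cbln1*, *Cbln2*, *Cbln3* and *Cbln4*, the climbing fibre protein *C1ql1*, its receptor *Adgrb3* (also called BAI3) and *Grid2ip*, which encodes the scaffold protein delphilin. They were chosen by name, as the rows of the count files whose Ensembl mouse gene ID carries one of these symbols in the GENCODE M21 annotation, and all 7 were found among 38561 genes. The receptor gene itself is not a member and was not analysed here. The samples are PCs cut by laser from the cerebellum of male mice, of a strain that the labels write as C56/BL6, at postnatal day 0 (P0), P4, P8, P14 and P21, with 3 libraries per time point and 15 in all. No treatment or genotype distinguishes them. The study collected single PC soma from P4 on but clusters of PCs at P0, so at the step from P0 to P4 age and the way of capture cannot be told apart. The methods call the 3 replicates biological, and each time point is known from these 3 only.

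As background, granule neurons send parallel fibres to the PC dendrite and release Cbln1, which ties presynaptic neurexins to the postsynaptic delta2 receptor and so holds this synapse together. Cbln3 is made by granule neurons too and is secreted as a complex with Cbln1. Inferior olive neurons, whose axons are the climbing fibres, release C1ql1, which binds Adgrb3 on the PC. Delphilin sits inside the PC, where its PDZ domain holds the tail of the delta2 receptor. Cerebellins and C1ql1 are therefore mostly products of the cells that contact PCs, whereas Adgrb3 and delphilin belong to the PC side.

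Total counts on genes ran from 3409371 to 7814951 per library, and 3 counts, taken here as the smallest number that can be read as present, stand for 0.388 to 1.0 counts-per-million units (CPM) depending on the library. This floor covers counting error only. CPM values were scaled with TMM normalization. The sum of 6 PC markers (among them *Pcp2*, *Car8* and *Calb1*) was 5340 ± 737 CPM (SD, n = 3) at P0 and 42941 ± 5287 at P21, and all 6 rose with day. The lowest sum of any library was 4549 CPM, so PC RNA was present throughout. RNA of other cells was present as well. The 8 granule neuron markers summed to between 310 and 1266 CPM per library, the 8 Bergmann glia and astrocyte markers to between 3147 and 9825, and the 5 molecular layer interneuron markers to between 152 and 724. At P0 the glial sum (4765 ± 815 CPM, SD, n = 3) was close to the PC marker sum. It exceeded the PC sum in replicate 1 (4662 against 4549 CPM) and replicate 3 (5627 against 5465), but not in replicate 2 (4007 against 6007). From P4 on the PC sum was the higher in each library. The lists hold different genes, so these sums do not give shares of cells. The 5 oligodendrocyte markers all rose with day, and their sum went from 22.4 ± 11.8 CPM (SD, n = 3) at P0 to 267 ± 80.0 at P8 and 569 ± 241 at P21. Most of that sum was *Cnp* up to P14, 61.0% at P0, 82.3% at P8 and 74.0% at P14, and 45.2% was at P21. *Mag* and *Mobp* were at 0 in all P0 libraries and *Mog* in all P8 libraries, so correlations with this sum largely follow 1 gene. P14 replicate 2 stood apart, with 1266 CPM of granule neuron markers against 484 and 568 in the other P14 libraries and with the lowest PC marker sum of P14, 30749 CPM. In such bulk samples, fewer cells of a type and less RNA per cell cannot be told apart.

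*Cbln3* (ENSMUSG00000040380, chromosome 14 of GRCm38, 55878913 to 55884392, minus strand) showed the clearest change of the 7 genes. It had at most 1 count per library in the first days and was abundant from P14. At P0 it had 1, 0 and 1 counts in replicates 1 to 3, and at P4 it had 0 counts in all 3 libraries. At P8 it reached 2.22, 4.39 and 9.40 CPM. At P14 it stood at 44.5, 135 and 82.4 CPM, and at P21 at 71.8, 37.1 and 113 CPM. Every P8 library thus lay above every P4 library and every P14 library above every P8 library, whereas P14 and P21 overlapped. Against the P4 floor of 3 counts per library, the P8 mean was at least 9.77-fold higher and the P14 mean at least 160-fold higher. From P8 to P14 the fitted change was a log2 fold change of 4.02 (standard error, SE, 0.68, adjusted p = 0.00540 by edgeR's quasi-likelihood test), or 16.3-fold. The step from P4 to P8 passed the same test (edgeR adjusted p = 0.00423), though its fitted size depends on the prior count because P4 is at 0. The step from P14 to P21 did not pass (log2 fold change -0.24, SE 0.59, edgeR adjusted p = 1). Over the whole period the slope was 0.52 log2 units per day (SE 0.081, edgeR adjusted p = 8.44e-05). With limma-voom in place of edgeR, the course over the 5 time points still passed (adjusted p = 3.15e-04), but the steps from P4 to P8 and from P8 to P14 did not (adjusted p = 0.216 and 0.299).

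**Figure D1:**
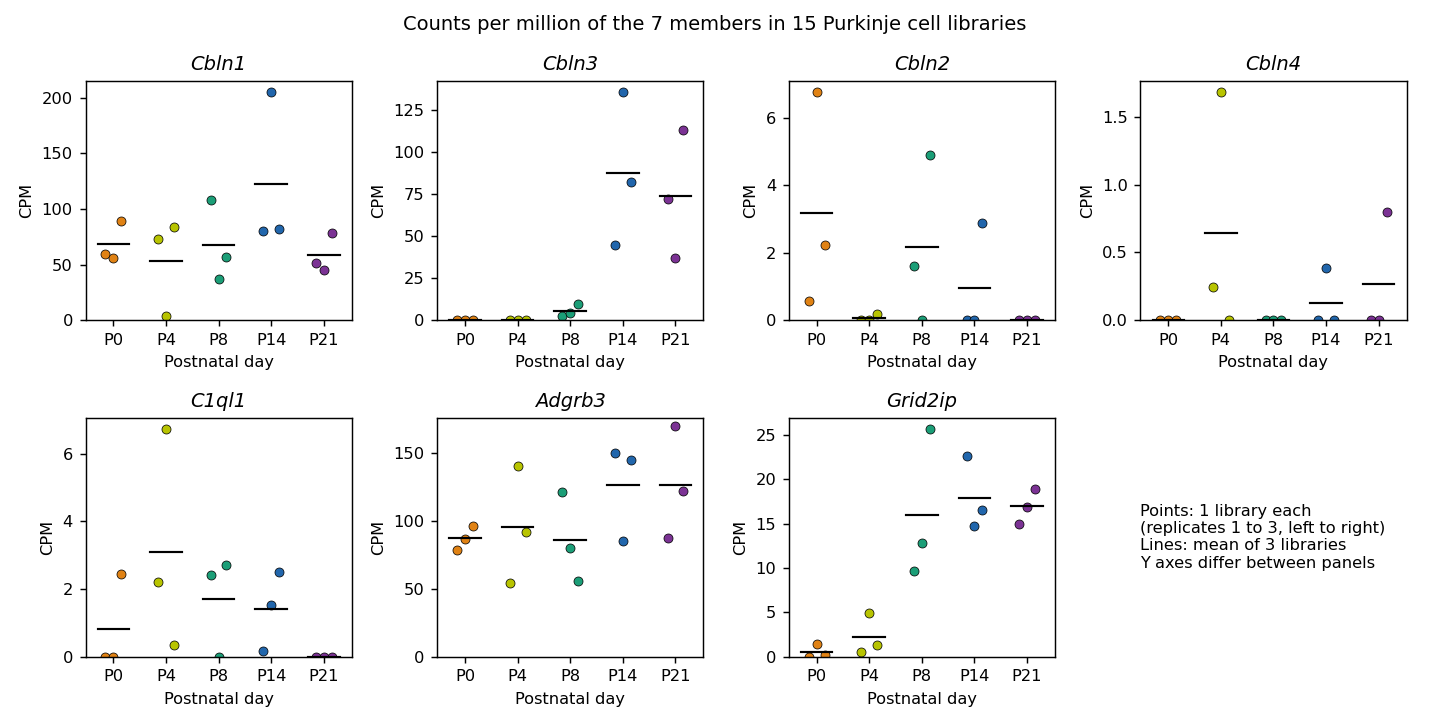
CPM of each of the 7 genes (y axes, linear, different scale in each panel) against postnatal day (x axes), with 1 point per library and a line at the mean of 3 libraries. *Cbln3* and *Grid2ip* are low at P0 and P4 and high at P14 and P21, *Cbln1* and *Adgrb3* are present throughout, and *Cbln2*, *Cbln4* and *C1ql1* stay below 7 CPM in each library.

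The course of *Cbln3* ran beside that of *Gabra6*, which encodes the GABA-A receptor subunit alpha6 and defines mature granule neurons. *Gabra6* was at most 0.736 CPM in any P0 or P4 library and lay between 0 and 8.32 CPM at P8. It was 65.7, 160 and 82.5 CPM in replicates 1 to 3 at P14 and 74.8, 44.1 and 71.6 CPM at P21. In the 6 libraries of P14 and P21, the CPM of *Cbln3* was between 67.8% and 158% of that of *Gabra6*. CPM does not allow for the length of a gene. Per kilobase of exon (RPKM), the mean of *Cbln3* was the lower, 18.0 against 41.3 at P14 and 15.2 against 25.5 at P21. The courses did not match in each library. P8 replicate 2 had 4.39 CPM of *Cbln3* with *Gabra6* at 0. At P21 *Cbln3* was highest in replicate 3 and *Gabra6* in replicate 1. P14 replicate 2, the library with the most *Gabra6*, also had the most *Cbln3*, and without it *Cbln3* still passed the step from P8 to P14, since that call held in each of 15 fits that left out 1 library (log2 fold change 3.56 to 4.72, edgeR adjusted p 0.00404 to 0.0342). *Gabra6* was 1 marker among several with such a course. *Ppp1r17*, a PC marker, had means of 0.988, 5.43, 360, 1229 and 1577 CPM from P0 to P21. Over the 15 libraries, the Pearson r of *Cbln3* was 0.390 with the sum of the granule neuron markers, 0.869 with that of the PC markers and 0.884 with that of the oligodendrocyte markers, and these sums share the day and depth of the libraries. For deviations from the mean of each time point, r was 0.485 with the granule neuron markers, -0.260 with the PC markers and 0.465 with the oligodendrocyte markers. Whether *Cbln3* RNA here came from granule neurons caught with the PCs was not tested. Of the 8 granule neuron markers, 4 rose and 1 fell with day, and none was at 0 in all libraries of a time point. *Neurod1*, a transcription factor gene of granule neurons, had a mean of 211 CPM at P0, 550 at P8 and 199 at P21, and made up between 43.1% and 76.0% of the granule marker sum at the 5 time points.

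*Cbln1* (ENSMUSG00000031654, chromosome 8, 87468405 to 87472609, minus strand), the founding member of the family, was present from birth and showed no change with age that passed the test. It stood at 59.8, 55.6 and 89.0 CPM in the P0 libraries. At P4 it was 72.9, 3.88 and 83.6 CPM and at P8 108, 37.0 and 56.8 CPM. At P14 it was 80.1, 205 and 81.6 CPM, and at P21 51.1, 45.5 and 78.8 CPM. Of the 5 time points only P14 and P21 did not overlap, by a narrow gap. P4 replicate 2 (30 counts) was by far the lowest library and P14 replicate 2 the highest. The slope was 0.018 log2 units per day (SE 0.033, edgeR adjusted p = 0.748), the course over the 5 time points had an edgeR adjusted p of 0.645, and no step passed. The largest steps were those from P8 to P14 (log2 fold change 0.86, SE 0.70, edgeR adjusted p = 0.707) and from P14 to P21 (-1.06, SE 0.71, edgeR adjusted p = 0.885), and over the 15 fits that left out 1 library they ranged from 0.27 to 1.39 and from -1.34 to -0.47. With an SE near 0.7 log2 units, changes of that size were not detectable in these libraries.

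Within a time point, the libraries with more *Cbln1* were mostly those with less PC signal. At 4 of the 5 time points the library lowest in *Cbln1* was the one with the highest PC marker sum, and at 4 of the 5 the library highest in *Cbln1* was the one with the highest granule marker sum. For deviations from the mean of each time point, r was -0.858 with the PC markers and 0.687 with the granule markers. It was as high, 0.697, with 4 microglia markers, whose mean sums were only 3.43 to 20.4 CPM, so the tie was not particular to granule markers. P4 replicate 2 stands apart here, with 17387 CPM of PC markers against 11720 and 10469 in the other P4 libraries, and 363 CPM of granule markers against 557 and 550. Its *Cbln1* level was 1.76% of its *Neurod1* level, against 19.7% and 23.6% in the other libraries of that day. These are descriptions of 15 libraries, and the part of granule neuron RNA in the *Cbln1* values was not tested.

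Set against each other per exon length, where the library scale cancels, the 2 partner cerebellins changed their proportion. The RPKM (CPM divided by the exon length in kilobases) of *Cbln3* was at most 0.002 of that of *Cbln1* at P0 and 0 at P4. The ratio was 0.0128, 0.074 and 0.103 in the P8 libraries, 0.347, 0.412 and 0.630 at P14, and 0.877, 0.508 and 0.894 at P21. The P8 and P14 ratios did not overlap, and those of P14 and P21 did. P14 replicate 2, which stands out in both genes, lay within the P14 ratios. The ratio rests on summed exon lengths of 4866 bases for *Cbln3* and 3037 for *Cbln1*.

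**Figure D2:**
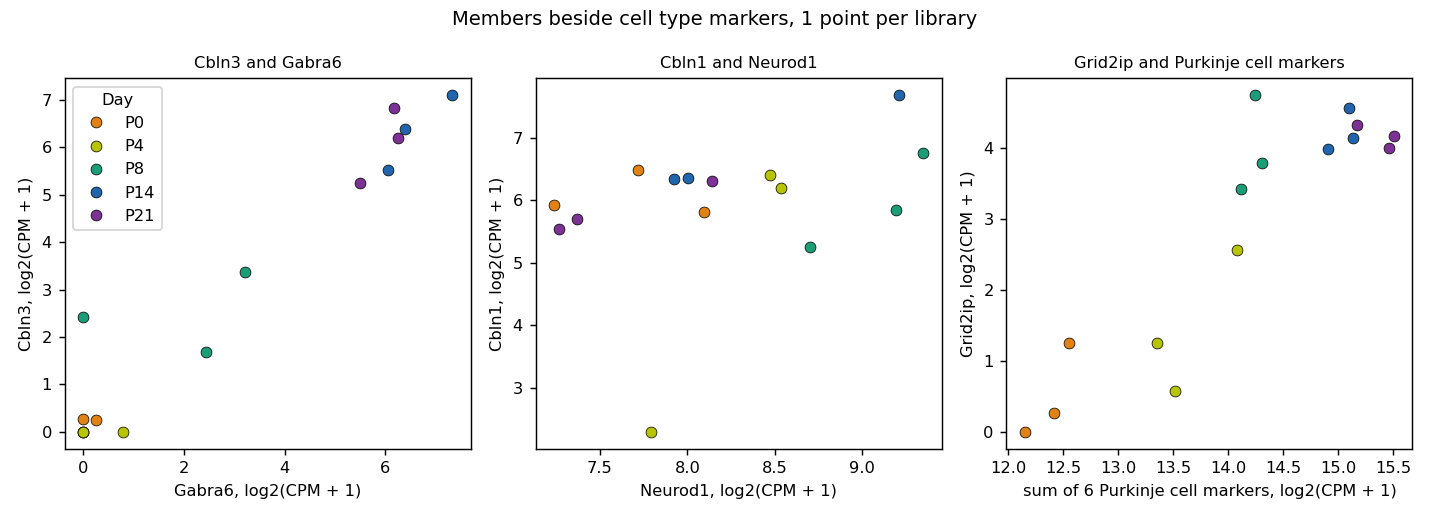
Each point is 1 library, coloured by day, on log2(CPM + 1) axes: *Cbln3* against *Gabra6*, *Cbln1* against *Neurod1*, and *Grid2ip* against the sum of 6 PC markers. *Cbln3* and *Gabra6* are both low at P0 and P4 and both high at P14 and P21, while P4 replicate 2, with 3.88 CPM, is the single low point for *Cbln1*.

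*Cbln2*, *Cbln4* and *C1ql1* lay near the limit of these libraries. *Cbln2* (ENSMUSG00000024647, chromosome 18), a cerebellin of other brain regions, had 99 counts over all 15 libraries. Its highest library was P0 replicate 2 with 6.75 CPM, while the other P0 libraries had 0.577 and 2.23 CPM, and it was at 0 in all 3 libraries of P21. *Cbln4* (ENSMUSG00000067578, chromosome 2, 172036233 to 172043466) had 21 counts in 4 of the 15 libraries, 13 of them in P4 replicate 2, and was too low to be tested. *C1ql1* (ENSMUSG00000045532, chromosome 11, 102939264 to 102946688, minus strand) had 124 counts. It was highest in P4 replicate 2, at 6.73 CPM, and between 0.343 and 2.21 CPM in the other P4 libraries. At P8 it was 2.42, 0 and 2.71 CPM and at P14 0.184, 1.53 and 2.50 CPM. No library of P21 had a count of *C1ql1*, where 3 counts would be 0.480 to 1.0 CPM, and 2 of the 3 P0 libraries had none either. Neither *Cbln2* nor *C1ql1* passed the test of the course (edgeR adjusted p = 0.210 and 0.372) or of the trend (0.264 and 0.371). In libraries with 3 counts or fewer, low expression and absence could not be told apart.

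*Adgrb3* (ENSMUSG00000033569, chromosome 1, 25067476 to 25829707, minus strand), the adhesion receptor for C1ql1, was expressed in each library and varied more between libraries than between ages. Its values were 78.7, 87.1 and 96.5 CPM at P0, and 54.2, 141 and 91.8 CPM at P4. They were 121, 80.1 and 56.1 CPM at P8. The P14 libraries stood at 150, 85.2 and 145 CPM and those of P21 at 87.5, 170 and 122 CPM. All time points overlapped, and the P21 mean was 1.45 times the P0 mean. The slope was 0.029 log2 units per day (SE 0.015, edgeR adjusted p = 0.170), and the largest step, from P8 to P14, was a log2 fold change of 0.56 (SE 0.37, edgeR adjusted p = 0.589). Because the PC markers rose, *Adgrb3* fell relative to them, from between 14.5 and 17.7 CPM per 1000 CPM of PC markers in the P0 libraries to between 1.93 and 3.65 in those of P21, a description with no test. In the P21 libraries, where the climbing fibre ligand *C1ql1* was at 0, its receptor had 262, 804 and 762 counts.

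*Grid2ip* (ENSMUSG00000010825, chromosome 5, 143357338 to 143392152, plus strand) rose from near 0 to a level that it kept from P8 on. It had 0, 7 and 1 counts at P0 and 0.491, 4.92 and 1.37 CPM at P4. At P8 it was 9.68, 12.8 and 25.7 CPM, at P14 22.6, 14.7 and 16.5 CPM, and at P21 15, 16.9 and 18.9 CPM. Every library from P8 on lay above every library of P0 and P4, and the P8, P14 and P21 libraries overlapped. The P8 mean was 7.10 times the P4 mean, and the P21 mean was 1.06 times the P8 mean. The course over the 5 time points passed the test (edgeR adjusted p = 0.0139), as did the slope of 0.21 log2 units per day (SE 0.069, edgeR adjusted p = 0.0326). No single step passed. The nearest were those from P0 to P4 (log2 fold change 2.07, SE 1.05, edgeR adjusted p = 0.382) and from P4 to P8 (2.79, SE 1.01, 0.260), the latter with an adjusted p of 0.0475 by DESeq2. The slope rests partly on P0: without that time point it was 0.11 (edgeR adjusted p = 0.208), and leaving out P0 replicate 2, P0 replicate 3, P4 replicate 3 or P14 replicate 1 gave slopes of 0.19, 0.17, 0.19 and 0.20 with edgeR adjusted p of 0.0658, 0.0636, 0.0555 and 0.0514. The course passed in each of these 15 fits without 1 library (edgeR adjusted p 0.00450 to 0.0376). Relative to the PC markers, *Grid2ip* was at 0 to 0.283 CPM per 1000 CPM in the P0 and P4 libraries, 0.544 to 1.32 at P8, 0.457 to 0.643 at P14 and 0.332 to 0.512 at P21. Over the 15 libraries its Pearson r was 0.906 with the sum of the PC markers and 0.933 with that of the oligodendrocyte markers, both of which rose with day. For deviations from the mean of each time point, the order was reversed, with r = 0.689 for the PC markers and 0.433 for the oligodendrocyte markers. The part of either cell type in the rise of *Grid2ip* was not tested. Of its exons, 645 bases are shared with *Gm20635* on the other strand, and where counting ignores strand, reads there cannot be told apart.

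**Figure D3:**
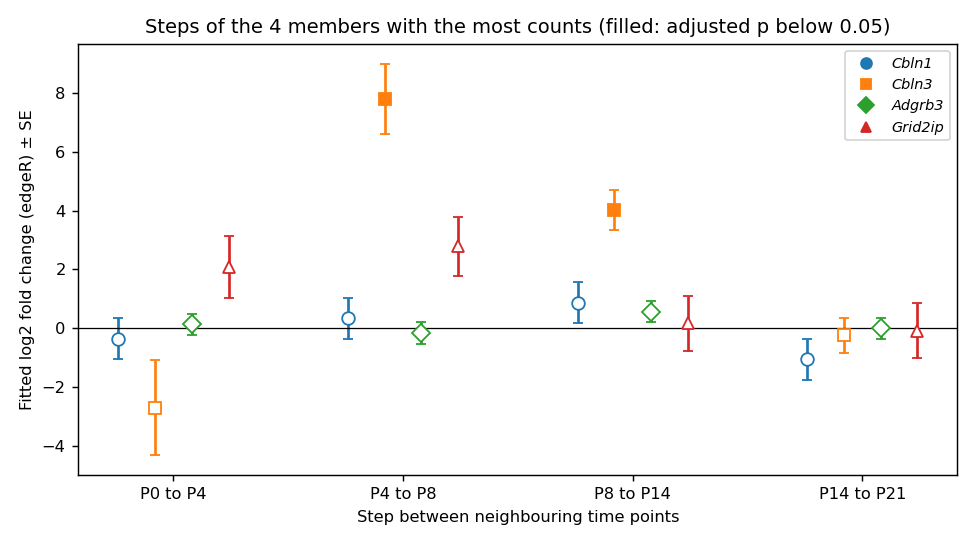
Fitted log2 fold change with its SE (y axis) of *Cbln1*, *Cbln3*, *Adgrb3* and *Grid2ip* over each step between neighbouring time points (x axis), with filled symbols for an edgeR adjusted p below 0.05. Of these 16 values, those of *Cbln3* from P4 to P8 and from P8 to P14 are filled.

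Of the 7 genes, 6 had enough counts to be tested. The course over the 5 time points passed for 2 of them, *Cbln3* and *Grid2ip*, where 19.3% of all 14293 genes tested passed. Both rose with day, as did 12.1% of all genes, and none of the 6 fell, against 14.1% of all genes. From P0 to P4, 0 of the 6 rose (1.74% of all genes did) and 0 fell (0.231%). From P4 to P8, 1 rose (0.882%) and 0 fell (0.252%). From P8 to P14, 1 rose (1.29%) and 0 fell (1.38%). From P14 to P21, 0 rose (0.063%) and 0 fell (0.266%). At an unadjusted p below 0.05 by edgeR, 1 gene, *Cbln2*, changed from P0 to P4 and 1, *C1ql1*, from P14 to P21, both at levels near the floor. DESeq2 and limma-voom also called 0 members at these steps, with 773 and 283 of all genes called from P0 to P4 and 175 and 17 from P14 to P21. At an unadjusted p below 0.05 each gave 1 member for the first step, *Grid2ip* by DESeq2 and *Cbln2* by limma-voom, and 0 for the last.

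The order of the levels per length, in RPKM, shifted with age. *Cbln1* had the highest mean at each time point, 22.4 RPKM at P0 and 40.3 at P14, and its range overlapped that of the next gene at P4, P14 and P21. *Adgrb3* was second at P0 (4.71 RPKM), P4 and P8, and was then passed by *Cbln3*. *Cbln3* moved from 1.10 RPKM at P8, where it overlapped *Grid2ip* (2.37), *C1ql1* (1.16) and *Cbln2* (0.748), to 18.0 at P14 and 15.2 at P21. At P21 the ranges of *Cbln1*, *Cbln3* and *Adgrb3* formed a chain in which *Cbln1* overlapped *Cbln3* and *Cbln3* overlapped *Adgrb3*. *Grid2ip*, next in the order at P14 and P21 with 2.65 and 2.50 RPKM, lay apart from its neighbours on both sides. With total counts in place of TMM the order of the means was the same at each time point.

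**Figure D4:**
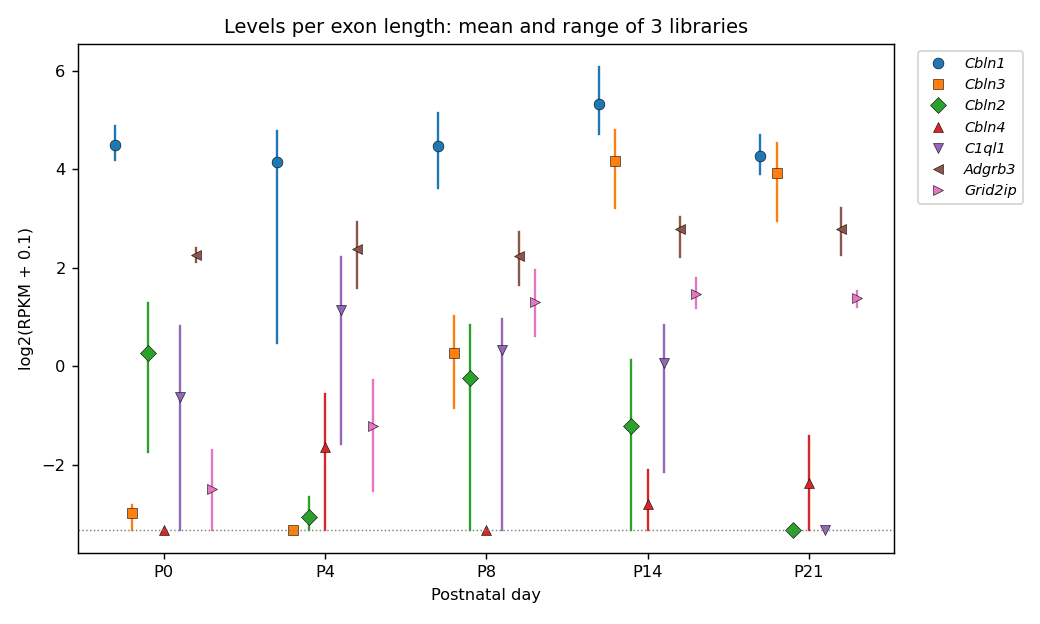
Mean (symbols) and range (bars) of 3 libraries in log2(RPKM + 0.1) (y axis) by postnatal day (x axis) for the 7 genes, with an RPKM of 0 at the dotted line. *Cbln1* has the highest mean at each day, and *Cbln3* climbs from the bottom of the order at P4 to second at P14 and P21.

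Promoter sequences are shown for the 2 genes that rose with day, each with its own course, so that what lies at their starts can be compared. Of the 7 genes, 4 have an entry in the RefSeq promoter table (build GRCm38.p6, 250 bases before to 50 after a start): *Grid2ip*, *Cbln3*, *Cbln4* and *Adgrb3*. Capitals mark TTGGC, a short motif of nuclear factor I, known from granule neuron maturation, on either strand. The *Cbln3* window is chr14:55884207-55884506 on the minus strand, and the *Grid2ip* windows are chr5:143363663-143363962 and chr5:143369824-143370123 on the plus strand. Both *Grid2ip* windows lie inside the gene as GENCODE M21 draws it, downstream of its first base at 143357338, and no window covers that base. The *Cbln3* window does cover the first base of its gene in GENCODE M21, 55884392, but the start it was drawn around lies downstream of that base, inside the gene.
Cbln3: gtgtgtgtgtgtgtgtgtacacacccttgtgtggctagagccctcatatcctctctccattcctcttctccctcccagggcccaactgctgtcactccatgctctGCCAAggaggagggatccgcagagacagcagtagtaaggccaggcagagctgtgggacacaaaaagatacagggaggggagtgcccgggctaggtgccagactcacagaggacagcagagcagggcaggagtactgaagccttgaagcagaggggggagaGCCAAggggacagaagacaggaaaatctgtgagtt
Grid2ip, first start: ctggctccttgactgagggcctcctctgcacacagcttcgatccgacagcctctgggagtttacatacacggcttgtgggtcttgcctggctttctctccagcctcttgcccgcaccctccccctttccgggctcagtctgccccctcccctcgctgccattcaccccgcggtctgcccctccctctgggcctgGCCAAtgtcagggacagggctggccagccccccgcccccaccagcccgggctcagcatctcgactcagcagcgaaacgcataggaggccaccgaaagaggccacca
Grid2ip, second start: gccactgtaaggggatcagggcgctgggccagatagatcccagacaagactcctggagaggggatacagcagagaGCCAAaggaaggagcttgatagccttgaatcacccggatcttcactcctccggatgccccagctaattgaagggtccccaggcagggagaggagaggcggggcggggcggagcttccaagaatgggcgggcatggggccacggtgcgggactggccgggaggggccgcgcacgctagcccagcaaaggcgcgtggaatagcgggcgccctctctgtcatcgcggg
The motif occurs 2 times in the *Cbln3* window and 1 time in each *Grid2ip* window. It occurs 3 times in the window of *Adgrb3*, which did not pass the test of the trend, and 0 times in that of *Cbln4*, and 46.9% of 32544 promoters hold it at least once. The motif of the ROR receptors, AGGTCA on either strand, which 16.2% of promoters hold, is in none of the 5 windows of the 4 genes. The GC content of the *Cbln3* window was 57.0% and that of the *Grid2ip* windows 66.0% and 65.0%, against a median of 53.0%. These matches are descriptions of letters in short windows.

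The genes whose log2 CPM was most like that of a member, among 12847 other protein-coding genes over the 15 libraries, were *Scn4b* (Pearson r = 0.976) and *Rspo3* (r = 0.972) for *Cbln3* and *Nceh1* (r = 0.965) and *Stac* (r = 0.958) for *Grid2ip*. *Scn4b*, a sodium channel beta subunit gene, had a mean of 0.0641 CPM at P0, 8.29 at P8, 86.5 at P14 and 147 at P21. *Nceh1* had a mean of 45.0 CPM at P0, 187 at P8 and 276 at P21. For the other genes the closest were less alike, with r = 0.873 for *Coa4* and 0.863 for *Pak1* beside *Cbln1*, 0.850 for *Det1* and 0.816 for *Arhgef19* beside *Adgrb3*, 0.882 for *Sec24a* and 0.826 for *Cdhr1* beside *Cbln2*, and 0.838 for *1810043G02Rik* and 0.812 for *Cda* beside *C1ql1*. Among the members, *Cbln3* and *Grid2ip* were closest (r = 0.821), *Cbln1* and *Cbln3* had r = 0.350, and *C1ql1* and *Adgrb3* r = -0.061. These coefficients rank genes and carry no test, and the libraries share their day and their depth.

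Among the receptors known to bind cerebellins or C1ql proteins, *Neo1*, the receptor neogenin, fell with day from 114 ± 33.8 CPM (SD, n = 3) at P0 to 17.5 ± 10.2 CPM at P21 (slope -0.12 log2 units per day, SE 0.019, edgeR adjusted p = 8.10e-05). *Grid1*, *Dcc*, *Grik2* and *Grik4* did not pass the test of the trend. The median slope of all genes tested was -0.0077.

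Of the 5 relatives, *C1ql2* and *C1ql4* had 0 counts in all 15 libraries, and *C1ql3*, *Adgrb1* and *Adgrb2* were tested without a call in the trend. Of all genes tested, 12.1% rose and 14.1% fell. At an unadjusted p below 0.05 by edgeR, 1 of them, *C1ql3*, counted (slope -0.25, SE 0.11, adjusted p = 0.105), with 1 by DESeq2 and 0 by limma-voom, and neither tool called any of the 3. *C1ql3* was between 0 and 17.7 CPM at P4 and at most 0.334 CPM at P21. *Adgrb1* and *Adgrb2*, the other BAI receptors, had means of 1.22 to 2.71 RPKM and 1.46 to 4.64 RPKM over the time points, against 4.62 to 6.83 RPKM for *Adgrb3*, and the range of *Adgrb2* took in all *Adgrb3* libraries at P0 (0.385 to 6.34 RPKM) and at P4 (0.459 to 8.02 RPKM).

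Of the 13 scaffold and signalling genes, 4 rose with day and 0 fell, against 12.1% and 14.1% of all genes tested, and 9 did not pass. *Homer3*, a scaffold protein enriched in PC dendritic spines, rose from 14.2 ± 10.3 CPM (SD, n = 3) at P0 to 850 ± 164 at P21 (slope 0.26 log2 units per day, SE 0.029, edgeR adjusted p = 2.16e-06). It also passed the steps from P0 to P4 (log2 fold change 2.46, SE 0.39, edgeR adjusted p = 0.00352) and from P8 to P14 (1.51, SE 0.36, 0.0343). With limma-voom, 0 of the 13 genes passed at either of these steps, where it called 283 and 378 of all 14293 genes. *Ptpn4*, a phosphatase known to bind the delta2 receptor, went from 8.05 ± 5.89 to 46.0 ± 5.22 CPM (slope 0.13, SE 0.025, edgeR adjusted p = 5.92e-04). The scaffold genes *Shank2* and *Shank1* had slopes of 0.060 and 0.057 (SE 0.013 and 0.016, edgeR adjusted p = 0.00242 and 0.0148), and without P0 *Shank2* did not pass (slope 0.038, edgeR adjusted p = 0.0578). *Elmo1* and *Rac1*, which act downstream of BAI receptors, did not pass, nor did *Homer1*, *Shank3*, *Dlg2*, *Dlg4*, *Gopc*, *Magi2* and *Becn1*. The median slope of the 13 genes was 0.026.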

How the data were processed

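RNA-seq libraries of mouse PCs cut by laser were made from 15 samples, with 3 biological replicates at each of 5 time points. The authors deposited raw read counts for each Ensembl gene: paired reads were trimmed (cutadapt 1.2.1), aligned to GRCm38/mm10 (GSNAP), reduced to those with a single mapping place and counted in HTSeq 0.5.3p9 where they lay wholly inside a feature. The release of the annotation and the strand setting are not given in the sources used here. HTSeq tallies that name no gene (18.2% to 31.0% of all tallied reads) were left out. Reads shared by near-identical or overlapping genes were not counted, which can lower such genes.

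Groups and replicate numbers came from the sample labels. GENCODE M21 (GRCm38) gave names, positions and exon lengths. Tests used edgeR 4.0.16 in R 4.3.3 on the counts (TMM, filterByExpr by time point, 14293 genes, quasi-likelihood F test, Benjamini-Hochberg over all genes, threshold 0.05), with the time point as a factor for the course and the 4 steps, and the day as a number for the trend. Standard errors were derived from the estimate and its F statistic. RPKM used TMM effective library sizes, and log2 CPM a prior count of 2. DESeq2 1.42.0, limma-voom (limma 3.58.1), RLE size factors, other filters, a replicate block and leaving out each sample were alternatives. The tests were also run on simulated data, with large changes placed in genes well above the floor. That run does not cover genes near the floor, and its outcome is not given here. Replicates differed by far more than sampling noise (chi-square per gene 18.4 to 56.5), so none was a copy of another. This check cannot show that they are independent, which rests on the methods calling them biological. The spread between libraries limits the tests (biological coefficient of variation 0.705), and intervals or floors cover counting error only. Figures used matplotlib 3.10.9 in Python 3.11.15.

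All members are named. Of the partner lists, up to 3 genes each way with the largest slope among those called are named, and others that complete a short count were named after their values were seen. Part of the list of binding partners is not reported here. For each tested member, the 2 genes with the highest r are named. Members and lists were chosen with earlier results of these data known.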

Additional observations from a re-analysis of the deposited data

How the results depend on the processing

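The calls of *Cbln3* and *Grid2ip* in the course over the 5 time points held in all 21 alternatives run, with adjusted p between 1.17e-38 and 3.15e-04 and between 1.28e-05 and 0.0376. In the trend, *Cbln3* passed in 23 of 23 alternatives and *Grid2ip* in 18 of 23. The number of members called in the trend was therefore 1 without P0 and between 1 and 2 when single libraries were left out. From P4 to P8, DESeq2 called 2 members, with 496 of all 14293 genes, and limma-voom 0, with 177 of all genes. From P8 to P14 limma-voom called 0 members, with 378 of all genes. The cause was not tested. Leaving out single libraries kept 1 member in each of these steps and 0 in the other steps. *Shank2* did not pass without P0 (slope 0.038, adjusted p = 0.0578).

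The number of genes called in a step, 281, 162, 382 and 47 from the first to the last, was 773, 496, 844 and 175 with DESeq2, and 17 in the last step with limma-voom. Leaving out single libraries gave 186 to 302, 74 to 201, 163 to 441 and 24 to 68 genes. RPKM from total counts moved the mean by more than the SD for *Grid2ip* at P21 (2.19) and *Adgrb3* at P0 (5.26).

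Same-numbered replicates did not deviate together (mean r = -0.0033 over 30 pairs, none over 0.1, and 7 of 15 samples correlated best with their own number), so the numbers were not taken to pair samples. With the replicate block, 2552 genes passed in the course and 3634 in the trend, against 2753 and 3750 without it, and no call of a member changed.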
